A study of Mus musculus with 48 samples.

Results

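The transcripts described here are 8 noncoding RNAs of the mouse, Malat1, Neat1, Kcnq1ot1, Meg3, H19, Pvt1, Dancr and Mir17hg, chosen by gene symbol as RNAs with which to judge nuclear RNA in cytoplasmic and polysomal preparations and noncoding RNA in polysome fractions. All 8 symbols were found among the 50600 genes counted. Counts were present for 6 of them, and 5 (Malat1, Neat1, Kcnq1ot1, Pvt1 and Mir17hg) passed the filter on low counts that kept 13889 genes for testing.

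RNA was sequenced from mPDAC, a mouse pancreatic ductal adenocarcinoma cell line whose labels give an FVB/N x C57BL6 background and an age of 8 weeks. Cells of 3 cultures were non-treated (NT cultures 1, 2 and 4) and cells of 3 cultures received the nucleolin antagonist N6L at 50 µM for 48 h (N6L cultures 1, 2 and 3). Emetine, which holds ribosomes on the RNA, was given to all cells before lysis, the nuclei and mitochondria were spun out of the lysate, and each culture gave 1 cytoplasmic library and 1 library of the pooled polysome fractions of a sucrose gradient, 12 libraries in all. The study asked how N6L changes the RNAs that ribosomes engage. All groups come from a single cell line, and whether the cultures were grown independently is not stated, so p-values measure the spread between these cultures only. Library totals ran from 19519911 to 44972333 counts. Of the 48 technical replicates, 3 of N6L cytoplasm 2 carry 2 different culture numbers in their labels, and leaving them out kept the same members past the threshold in every comparison. Ductal keratins were abundant (Krt8, Krt18 and Krt19 at means of 2770, 3460 and 1620 CPM, counts scaled to the size of the library), whereas the epithelial adhesion gene Epcam had 1 to 10 counts per library and the leukocyte, endothelial and fibroblast marker lists each summed to at most 2.23 CPM in any library. The acinar marker Cela1 and the pancreatic factor Pdx1 were present at means of 44.9 and 50.4 CPM, while the defining acinar gene Ptf1a and the islet hormone gene Ins2 had 0 counts in every library.

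Long noncoding RNAs are transcribed and often spliced like mRNAs but carry no long conserved reading frame. Malat1 stays in nuclear speckles, where splicing factors gather, and Neat1 is the architectural RNA of paraspeckles, nuclear bodies built on its long transcript. Kcnq1ot1, Meg3 and H19 come from imprinted loci, of which only 1 parental allele is active, Pvt1 lies beside the Myc oncogene, Dancr hosts a small nucleolar RNA, and Mir17hg is the primary transcript of the oncogenic miR-17-92 cluster. Because Malat1 and Neat1 reside in the nucleus, their level in a cytoplasmic or polysomal preparation is commonly used to judge its purity.

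The libraries were made from RNA captured on oligo(dT), so the 3′ ends are shown first, because the end of a transcript bears on whether it is captured. The last 30 bases of the annotated transcripts (GENCODE vM21, GRCm38) are printed 5′ to 3′ with the polyadenylation signal AATAAA in capitals where it was found; the signal lies in the last 30 bases of 48.9% of the longest transcripts of 13867 genes tested. For the long Neat1 transcript, which lacks that signal there, the capitals mark its terminal A-rich stretch. The same 11 bases were found once in Malat1, 292 bases before its annotated end, and they occur in 1.10% of the 13867 transcripts. Malat1 and long Neat1 are known to end at such a stretch, after cleavage by RNase P, and to be protected there by a triple helix in place of a poly(A) tail.
Neat1-201 (20771 bases, end at chr19:5824708-5824737, minus strand): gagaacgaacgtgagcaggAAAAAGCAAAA
Malat1-201 (6983 bases, shared stretch at chr19:5795979-5796008, minus strand): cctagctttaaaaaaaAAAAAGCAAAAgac
Malat1-201 (annotated end at chr19:5795690-5795719, minus strand): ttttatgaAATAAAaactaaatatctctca
Neat1-202 (3004 bases, end at chr19:5842307-5842336, minus strand): tttacagcaaAATAAAggtttgagattgaa
Pvt1-202 (3319 bases, end at chr15:62378067-62378096, plus strand): acctcagAATAAAgaaaaatttacatgtct
Kcnq1ot1-201 (93092 bases, end at chr7:143203458-143203487, minus strand): taatAATAAAgacattaaaatccacaaaac
Mir17hg-201 (3536 bases, end at chr14:115046698-115046727, plus strand): tttttaAATAAAgttattttgtagcactga

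Short and long Neat1 share their 5′ part, so the deposited counts per gene do not say which of the isoforms was sequenced. Mir17hg carries 6 miRNA genes in a single transcript. Their main mature products are printed from RefSeq (GRCm38.p6) with the seed, bases 2 to 8, in capitals, because the seed selects the mRNAs that a miRNA represses. miR-17-5p and miR-20a-5p share a seed, as do miR-19a-3p and miR-19b-3p, while miR-18a-5p and miR-92a-3p each have their own.
mmu-miR-17-5p (chr14:115043684-115043706, plus strand): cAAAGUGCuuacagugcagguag
mmu-miR-20a-5p (chr14:115044183-115044205, plus strand): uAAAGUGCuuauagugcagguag
mmu-miR-18a-5p (chr14:115043867-115043889, plus strand): uAAGGUGCaucuagugcagauag
mmu-miR-19a-3p (chr14:115044048-115044070, plus strand): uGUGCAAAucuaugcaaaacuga
mmu-miR-19b-3p (chr14:115044358-115044380, plus strand): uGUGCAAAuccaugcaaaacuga
mmu-miR-92a-3p (chr14:115044476-115044496, plus strand): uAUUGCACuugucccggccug
Mature miRNAs have no poly(A) tail and were not measured. The 6 miRNA genes of the cluster had 0 counts in every library, and values for Mir17hg refer to its long transcript.

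Malat1, Neat1 and Pvt1 were readily detected, Kcnq1ot1 and Mir17hg were near the lower end of what was tested, Dancr was below it, and Meg3 and H19 were not seen at all. Levels are CPM scaled by TMM, that is, as shares of the sequenced poly(A)+ RNA, so a change in the amount of RNA per cell and a change in the number of cells contributing it cannot be told apart. Averaged over the 12 libraries, Neat1 stood at 73.3 CPM, Pvt1 at 54.9 and Malat1 at 47.5, and 23.2%, 30.2% and 33.8% of the genes tested had a higher mean. Kcnq1ot1 (0.883 CPM) and Mir17hg (0.667 CPM) had 86.6% and 89.1% of the genes above them. All members together made up 0.00905% to 0.0317% of the counts of a library. Per kilobase of exon in NT cytoplasm, Malat1 stood at 8.33 ± 2.25 CPM per kb (SD, n = 3 cultures, as for all SDs here), Pvt1 at 7.45 ± 0.639 and Neat1 at 1.83 ± 0.665. That value for Neat1 divides by the 20.8 kb of the long transcript. Divided by the 3.00 kb of the short one it would be 12.7 ± 4.60, so the place of Neat1 in this order depends on the isoform. Malat1 and Neat1, the members with the shared A-rich stretch, were thus present in RNA taken with oligo(dT), and whether that stretch or a poly(A) tail was captured was not tested.

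Meg3, on chromosome 12 (109541001-109571726, plus strand), is a maternally expressed imprinted RNA with growth-restraining activity, and H19, on chromosome 7 (142575529-142578143, minus strand), is the maternally expressed partner of Igf2. Both had 0 counts in all 12 libraries, which at 3 counts allows at most 0.0667 to 0.154 CPM per library. These limits divide by the library total, without the TMM scaling of the other levels. Their imprinted neighbours were as quiet: Dlk1 and Igf2 had 0 to 1 count per library, and Rtl1 had 0. Mir675 and Mir770, the miRNA genes within H19 and Meg3, also had 0 counts. So did the small RNA genes annotated over the exons of Malat1 and Neat1, so these zeros do not tell whether a host is silent.

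Dancr, on chromosome 5 (74093060-74095406, plus strand), is a mostly cytoplasmic RNA that hosts Snora26. It had 5, 10 and 10 counts in NT cytoplasm, 3, 6 and 7 in NT polysomes, 0, 5 and 3 in N6L cytoplasm and 5, 3 and 6 in N6L polysomes. The N6L cytoplasm lay below the NT cytoplasm in CPM (0 to 0.101 against 0.153 to 0.501), and the polysome groups overlapped. With 63 counts in all it did not pass the filter, so it has no test beside the other members. Tested without the filter, it was lower in N6L cytoplasm by a log2 value of -2.27 (edgeR, adjusted p = 0.00877). In fits without NT culture 1 or without 1 N6L culture the values ran from -2.89 to -1.92. There it passed the filter only through NT cytoplasm, its highest group, so those fits are no separate test of the fall.

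**Figure D1:**
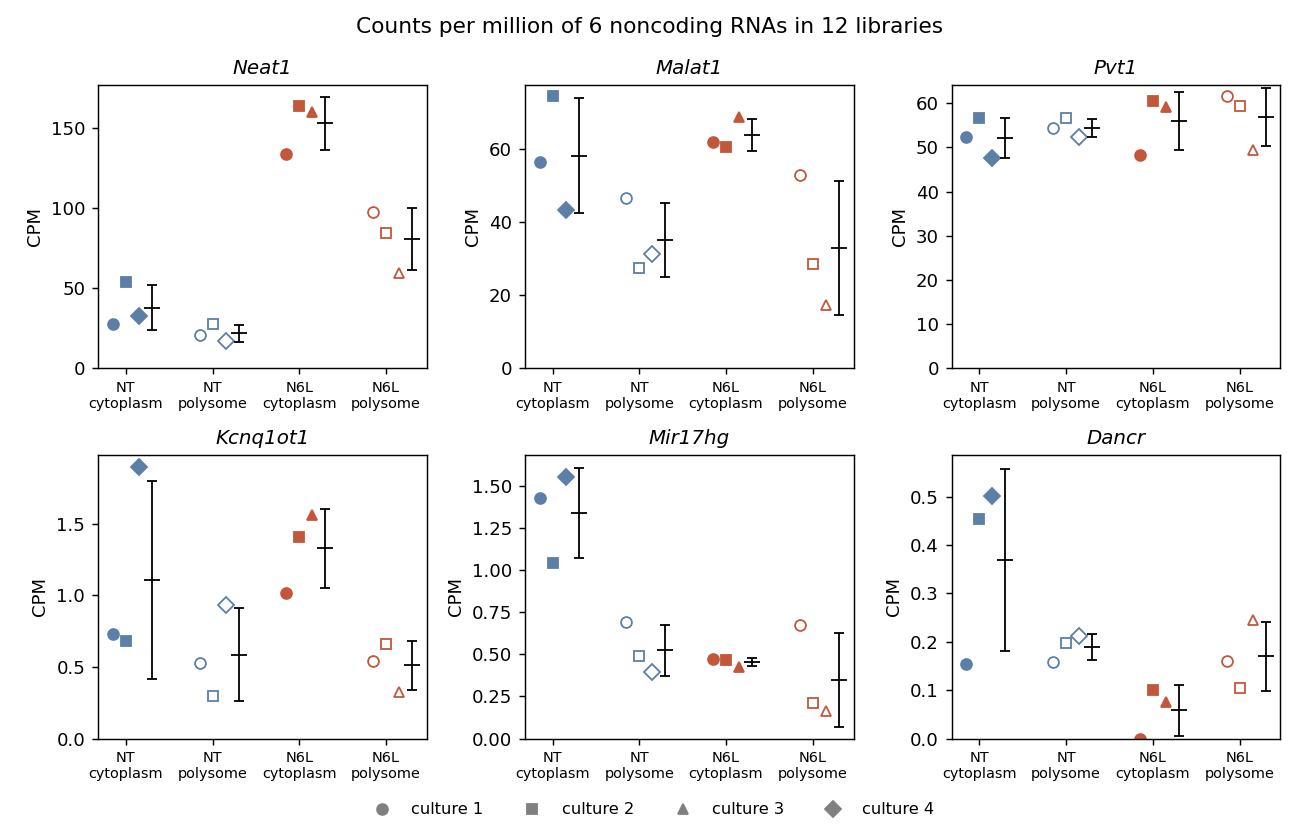
CPM (TMM-scaled, linear axes from 0) of 6 members in the 12 libraries; each symbol is a culture, filled for cytoplasm and open for polysomes, blue for NT and red for N6L, and the black bars are mean ± SD of 3 cultures. Neat1 lies at 134 to 164 CPM in N6L cytoplasm against 27.7 to 53.7 in NT cytoplasm, Pvt1 stays between 47.6 and 61.7 throughout, and Mir17hg lies at 0.427 to 0.471 in N6L cytoplasm against 1.04 to 1.55 in NT cytoplasm.

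The first comparison asked how the RNAs of the cytoplasm differ after N6L. Of the 5 members tested, Neat1 rose about 4-fold and Mir17hg fell about 3-fold, while Malat1, Pvt1 and Kcnq1ot1 did not pass the test. A gene counts as changed at an adjusted p under 0.05 (edgeR quasi-likelihood test, Benjamini-Hochberg over all genes tested). In this comparison 28.3% of all genes tested passed (14.5% higher, 13.8% lower), so that 2 of 5 members is a share near this background. The median log2 fold change was 0.13 over the 5 members and 0.04 over all genes.

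Neat1 lies on chromosome 19 (5824708-5845478, minus strand), 22.0 kb from Malat1. In the cytoplasm it stood at 27.7, 53.7 and 32.6 CPM in NT cultures 1, 2 and 4 and at 134, 164 and 160 CPM in N6L cultures 1, 2 and 3. Every N6L library lay above every NT library, with no overlap. The change was 2.01 ± 0.26 on the log2 scale (± SE, as for all log2 fold changes here; 95% interval 1.45 to 2.56), or 4.03-fold, with an adjusted p of 0.000697. Only 108 of the 13889 genes tested, and 7 of the 858 annotated lncRNA genes among them, had a larger log2 increase. Of the 16 alternative settings, each of which kept Neat1 past the threshold, the one with offsets for transcript length and GC content gave the smallest change, 1.45. Those offsets were set from the longest transcript of a gene, for Neat1 the long isoform.

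Malat1 lies next to Neat1 on the same strand (chromosome 19, 5795690-5802672) and served as a comparison for it within each library. In the cytoplasm it stood at 56.5, 74.6 and 43.4 CPM in NT cultures and at 62.0, 60.6 and 68.7 CPM in N6L cultures. The N6L values fell inside the NT range, and the change of 0.13 ± 0.32 (95% interval -0.56 to 0.82) did not pass the test (adjusted p = 0.777). Its sign turned to -0.34 with the length and GC offsets and to -0.07 without NT culture 4. The number of Neat1 counts per Malat1 count, which does not depend on the scaling, was 0.491 to 0.752 in NT cytoplasm and 2.16 to 2.71 in N6L cytoplasm. The ratio was 3.72-fold higher with N6L (exact two-sided permutation test, p = 0.1, the smallest that 3 against 3 cultures allow), higher in 3 of 3 N6L cultures than in any NT culture.

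Mir17hg, on chromosome 14 (115042879-115046727, plus strand), gave 47, 23 and 31 counts in NT cytoplasm and 12, 23 and 17 in N6L cytoplasm. In CPM these were 1.43, 1.04 and 1.55 against 0.471, 0.464 and 0.427, and the groups did not overlap. The change was -1.56 ± 0.40 (95% interval -2.42 to -0.70), a level 2.95-fold lower, with an adjusted p of 0.0131. It missed the threshold without N6L culture 2 (-1.62, adjusted p = 0.0541; range over its 14 alternatives 0.002 to 0.0541), and it was too low to be tested with technical replicate a alone or with at least 10 counts asked of every library.

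Pvt1, on chromosome 15 (62037986-62378096, plus strand), is an RNA amplified and transcribed with Myc in many tumours. It stood at 52.3, 56.6 and 47.6 CPM in NT cytoplasm and at 48.4, 60.5 and 59.1 CPM in N6L cytoplasm. The ranges overlapped and the change of 0.10 ± 0.15 (95% interval -0.21 to 0.42) did not pass (adjusted p = 0.612), with a sign that turned to -0.06 under the length and GC offsets. The interval is the narrowest of the 5 members and leaves out changes beyond 1.34-fold upward. Its neighbour Myc, at a mean of 846 CPM, had a log2 change of 0.22 ± 0.19 that did not pass either.

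Kcnq1ot1, on chromosome 7 (143203458-143296549, minus strand), is a long unspliced RNA that silences its imprinted domain in cis. It had 24, 15 and 38 counts in NT cytoplasm (0.733, 0.681 and 1.90 CPM) and 26, 70 and 62 in N6L cytoplasm (1.02, 1.41 and 1.56 CPM). NT culture 4 was the highest of the 6 and the groups overlapped. The change of 0.31 ± 0.43 (95% interval -0.62 to 1.24) did not pass (adjusted p = 0.608). The whole of its length is antisense to Kcnq1, which had 91 counts over the 12 libraries, and the sources used here do not say whether the counting took the strand into account. Among genes of that domain, Phlda2 fell by 1.33 on the log2 scale in the cytoplasm (SE 0.21, adjusted p = 0.00153) and Cdkn1c, at -0.10 ± 0.33, did not pass.

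In polysomes, Neat1 was again higher with N6L and no other member passed the test. In this comparison 9.67% of all genes tested passed (6.01% higher, 3.66% lower), against 1 of 5 members. The polysome libraries of a treatment come from the same lysates as its cytoplasmic libraries, so both comparisons rest on the same cultures.

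Neat1 stood at 21.0, 27.5 and 17.3 CPM in NT polysomes and at 97.8, 84.4 and 59.6 CPM in N6L polysomes. Here too all N6L libraries lay above all NT libraries, and the lowest N6L polysome library exceeded the highest NT cytoplasm library. The change was 1.88 ± 0.26 (95% interval 1.32 to 2.43), or 3.67-fold, with an adjusted p of 0.00173, and it passed under all 16 alternatives with log2 values from 1.71 to 2.14. Malat1 stood at 46.6, 27.4 and 31.3 CPM in NT polysomes and at 53.0, 28.6 and 17.3 CPM in N6L polysomes. The N6L range enclosed the NT range, and the change of -0.09 ± 0.33 (95% interval -0.78 to 0.61) did not pass (adjusted p = 0.893). There were 0.451 to 1.00 Neat1 counts per Malat1 count in NT polysomes and 1.84 to 3.45 in N6L polysomes. This ratio was 4.22-fold higher with N6L (exact two-sided permutation test, p = 0.1, again the smallest possible).

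Pvt1 stood at 54.3, 56.6 and 52.4 CPM in NT polysomes and at 61.7, 59.4 and 49.5 CPM in N6L polysomes, overlapping ranges with a change of 0.06 ± 0.15 (95% interval -0.25 to 0.38). Mir17hg stood at 0.690, 0.491 and 0.392 CPM in NT polysomes and at 0.671, 0.209 and 0.164 CPM in N6L polysomes. N6L culture 1 lay among the NT libraries and the other 2 below them, and the change of -0.50 ± 0.46 (95% interval -1.49 to 0.49) did not pass (adjusted p = 0.525). Kcnq1ot1, with 8 to 31 counts per polysome library, changed by -0.20 ± 0.50 (95% interval -1.27 to 0.87), which did not pass, and its sign turned under 5 of 15 alternatives.

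**Figure D2:**
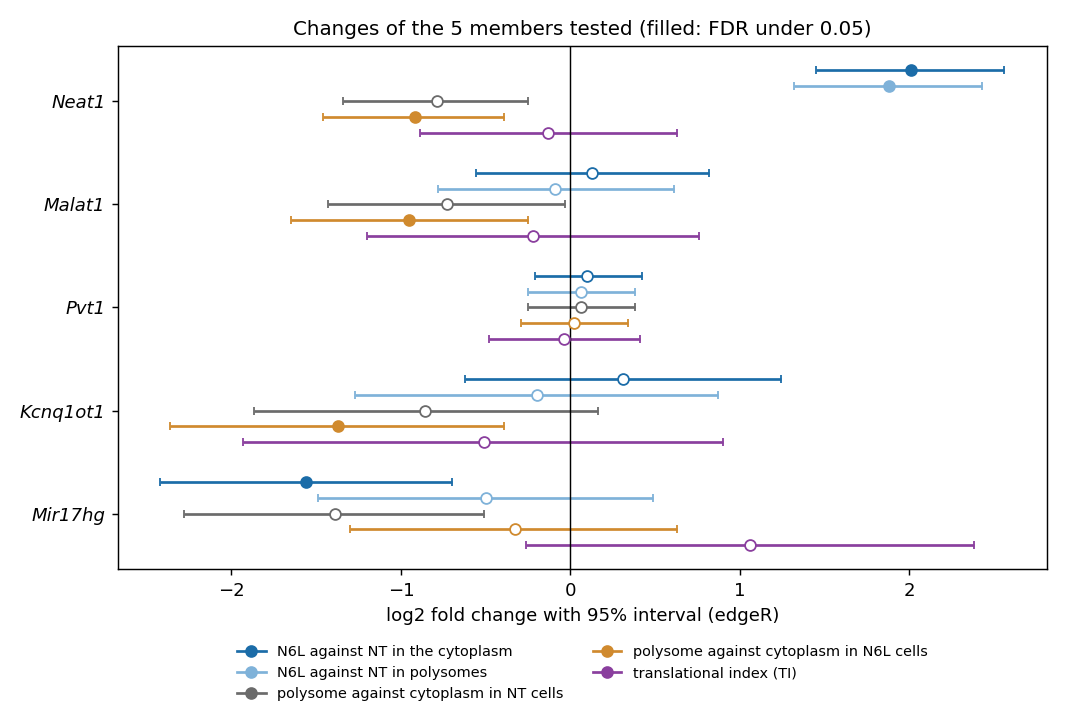
Log2 fold changes (edgeR, horizontal axis) with 95% intervals of the 5 members tested in the 4 comparisons and for the translational index; filled symbols passed at an adjusted p under 0.05. Neat1 is filled in both comparisons of N6L with NT (2.01 and 1.88), Mir17hg in the cytoplasm (-1.56), and Neat1, Malat1 and Kcnq1ot1 in polysome against cytoplasm of N6L cells (-0.92, -0.95 and -1.37).

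The next comparison set the polysome libraries of a treatment against its cytoplasmic libraries, to compare the share that each RNA took of the 2 kinds of library. The libraries were compared as groups, without pairing by culture. The amount of an RNA in the gradient fractions and its binding to ribosomes were not measured. Pvt1 had similar shares of both, whereas Malat1, Neat1, Kcnq1ot1 and Mir17hg had lower means in polysomes in both treatments. In N6L cells 3 of the 5 members, Malat1, Neat1 and Kcnq1ot1, passed the test, all lower in polysomes, where 39.0% of all genes tested passed (18.4% higher, 20.6% lower). In NT cells 0 of 5 passed with edgeR, where 0.209% of all genes tested passed, 29 genes, and 0 of 5 passed with DESeq2. With the culture as a block 203 genes passed, with 0 members among them. An unadjusted p under 0.05 with edgeR was found for 3 members (Malat1, Neat1 and Mir17hg) and for 1855 of the 13889 genes tested. Without the filter on low counts these 3 members passed, among 647 genes.

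Neat1 in N6L cells was lower in polysomes by -0.92 ± 0.25 (95% interval -1.46 to -0.39), or 1.90-fold, with an adjusted p of 0.0128. All polysome libraries lay below all cytoplasmic libraries in either treatment, and the NT cells gave a value near to it, -0.79 ± 0.25 (95% interval -1.34 to -0.25, adjusted p = 0.208). Malat1 was lower by -0.95 ± 0.33 in N6L cells (adjusted p = 0.0336), without overlap, and stood at -0.73 ± 0.33 in NT cells (adjusted p = 0.354), where the ranges overlapped. Kcnq1ot1 was lower by -1.37 ± 0.46 in N6L cells (adjusted p = 0.0305) and stood at -0.86 ± 0.47 in NT cells (adjusted p = 0.447). Mir17hg stood at -1.39 ± 0.41 in NT cells, without overlap (adjusted p = 0.184), and at -0.33 ± 0.45 in N6L cells (adjusted p = 0.571). Pvt1 stood at 0.06 ± 0.15 and 0.02 ± 0.15, with 95% intervals of -0.25 to 0.38 and -0.29 to 0.34.

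All 3 calls in N6L cells were lost in 3 alternatives. Without N6L culture 2 or without N6L culture 3, 0 members passed, with values of -0.89 and -0.71 for Neat1, -0.88 and -0.59 for Malat1, and -1.53 and -1.03 for Kcnq1ot1. Calls over all genes fell in those fits too, from 5415 with every culture kept to 1153 when culture 2 was omitted and 1653 when culture 3 was. With offsets for transcript length and GC content 0 members passed and the values were 0.24, -0.08 and 0.04. The offsets were set from the longest transcript of each gene. For Neat1 that is the long isoform, which the counts do not tell from the short one. Over all genes the offsets gave 1610 higher and 1173 lower calls, against 2559 and 2856 in the main fit. Malat1 also missed the threshold when only the groups compared were fitted, and Kcnq1ot1 did with technical replicate a alone and without N6L culture 1. The exons of these 3 RNAs cover 20.8, 6.98 and 93.1 kb.

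The translational index (TI) is the polysome-to-cytoplasm log2 ratio of N6L cells minus that of NT cells. For RNAs that are not translated it compares only their shares of these libraries. It passed the test for 0 members with edgeR, for 0 with DESeq2 and for 0 at an unadjusted p under 0.05. Among all genes tested 0.0% passed with edgeR and 0 genes with DESeq2, and 1074 had an unadjusted p under 0.05 with edgeR. The index was -0.13 ± 0.36 for Neat1 (95% interval -0.89 to 0.63), -0.22 ± 0.46 for Malat1 (-1.20 to 0.76) and -0.04 ± 0.21 for Pvt1 (-0.48 to 0.41). It was -0.51 ± 0.66 for Kcnq1ot1 (-1.93 to 0.90) and 1.06 ± 0.62 for Mir17hg (-0.26 to 2.38, unadjusted p = 0.108). Neat1 had thus risen 4.03-fold in the cytoplasm and 3.67-fold in polysomes, and the interval of its index leaves out a rise more than 1.86-fold smaller in polysomes. Its sign turned, to 0.70, with the length and GC offsets.

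Within cultures, the log2 ratio of polysome to cytoplasm of Neat1 was -0.40, -0.96 and -0.91 in NT cultures 1, 2 and 4 and -0.46, -0.96 and -1.43 in N6L cultures 1, 2 and 3. That of Malat1 was -0.28, -1.44 and -0.47 in NT cultures and -0.23, -1.08 and -1.99 in N6L cultures. Both RNAs were lower in polysomes in 6 of 6 cultures, and for both the treatments overlapped. Kcnq1ot1 was also lower in 6 of 6 cultures, from -2.04 to -0.42. Mir17hg was lower in 5 of 6, from -1.82 in NT culture 4 to -0.94 in N6L culture 2, with N6L culture 1 at 0.46, and Pvt1 ran from -0.25 to 0.35. The mean ratio of N6L minus that of NT cultures was -0.37 for Malat1, -0.19 for Neat1, -0.48 for Kcnq1ot1, -0.04 for Pvt1 and 0.74 for Mir17hg. Exact two-sided permutation tests of these 5 differences gave p = 0.7, 0.5, 0.5, 0.8 and 0.4, where 0.1 is the smallest possible, so none could have passed.

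**Figure D3:**
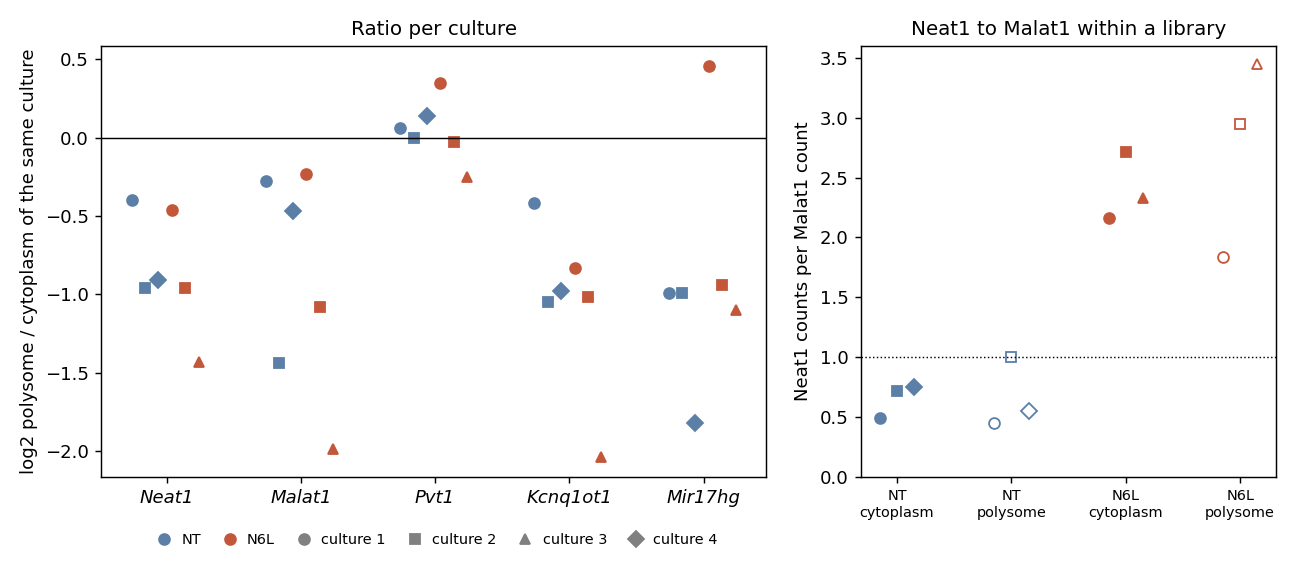
Left, log2 ratio of polysome to cytoplasm CPM of the same culture for 5 members (blue NT, red N6L; a symbol per culture). Right, Neat1 counts per Malat1 count in each of the 12 libraries, filled for cytoplasm and open for polysomes; NT libraries lie at 0.451 to 1.00 and N6L libraries at 1.84 to 3.45.

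The levels of other nuclear RNAs and of mitochondrial RNA also differed between the groups, and their part in the values above was not tested. The 15 other lncRNAs known as mainly nuclear, of which Tsix, Miat, Mirg and Hotair had 0 counts, summed to 74.5 to 104 CPM in NT cytoplasm, 120 to 152 in N6L cytoplasm, 59.0 to 67.1 in NT polysomes and 61.9 to 92.9 in N6L polysomes. The summed level was thus higher in N6L than in NT cytoplasm without overlap, by less than the 4.03-fold of Neat1. The RNAs without a poly(A) tail, led by the nuclear Rn7sk, summed to 10.2 to 29.7 CPM in NT cytoplasm and 5.72 to 35.2 in N6L cytoplasm, and to 2.13 to 6.02 in polysomes. Mitochondrially encoded RNA made up 0.454% to 0.966% of NT cytoplasm, 0.121% to 0.242% of N6L cytoplasm and 0.0157% to 0.116% of the polysome libraries.

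Of the nuclear lncRNAs, 9 passed the filter. In the cytoplasm 1 of the 9 rose with N6L, Peg13 (0.59 ± 0.20, adjusted p = 0.0386), and 0 fell, with a median of 0.25 against 0.04 over all genes. There 14.5% of all genes tested rose and 13.8% fell, so 1 of 9 is no more than this background. The most abundant, Tug1 and Firre, stood at 0.76 ± 0.29 and 0.29 ± 0.18 and did not pass. In polysomes Peg13 again rose (0.90 ± 0.20, adjusted p = 0.015), where 6.01% of all genes did. In polysome against cytoplasm of N6L cells 4 of 9 were lower, Xist (-1.30 ± 0.32), Tug1 (-0.96 ± 0.29), Firre (-0.90 ± 0.18) and Ftx (-0.78 ± 0.22), and 0 higher, with a median of -0.30 against 0.03 over all genes, of which 20.6% were lower. The values of Malat1 and Neat1 in that comparison, -0.95 and -0.92, lie within the range of these 4, which are those that passed the test. The other nuclear lncRNAs tested lay above both, from -0.30 (Airn) to 0.22 (Jpx). With the length and GC offsets 1 of the 9 was lower there and 0 were called in N6L against NT cytoplasm. Xist coats the inactive X chromosome, and Ftx lies in its inactivation centre.

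The lncRNAs known as cytoplasmic or as hosts of small nucleolar RNAs, the class to which Dancr belongs, fell more often than they rose. Of 15 tested, 9 fell with N6L in the cytoplasm, among them Gas5 (-1.18 ± 0.22), Snhg1 (-0.91 ± 0.15) and Zfas1 (-1.02 ± 0.14), and 1 rose, 2900097C17Rik (1.78 ± 0.41), with a median of -0.93, where 13.8% of all genes fell and 14.5% rose. Gas5 and Zfas1 are the most abundant of the list, at 794 and 559 CPM on average. With the length and GC offsets 8 fell and 1 rose. In polysomes 6 fell and 0 rose (median -0.51), against 3.66% and 6.01% of all genes. In polysome against cytoplasm of N6L cells 7 were higher and 1 lower (median 0.56), against 18.4% and 20.6%. Pvt1, with values of 0.10, 0.06 and 0.02 in these comparisons, lay apart from these medians. Over all 858 annotated lncRNA genes tested, a class looked at after the data had been seen, 52 were higher and 107 lower with N6L in the cytoplasm (median -0.14), and 108 were higher and 53 lower in polysomes than in cytoplasm of N6L cells (median 0.31). With library size alone these became 76 higher and 75 lower, and 68 higher and 62 lower.

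**Figure D4:**
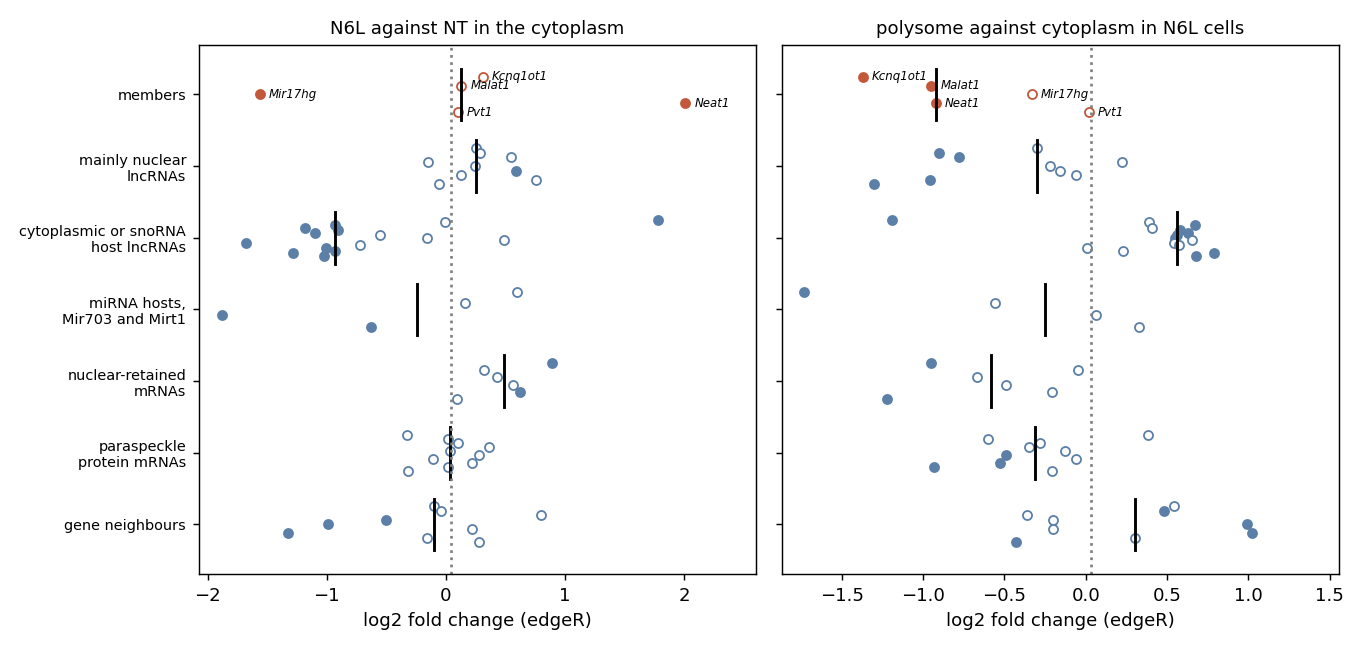
Log2 fold changes (edgeR) of the 5 members tested (red) and of the genes of 6 other lists (blue), in N6L against NT cytoplasm (left) and in polysome against cytoplasm of N6L cells (right); filled symbols passed at an adjusted p under 0.05, black bars are list medians and the dotted line is the median of all genes. In the right panel Kcnq1ot1, Malat1 and Neat1 lie at -1.37 to -0.92, left of the median of the nuclear lncRNAs (-0.30), and the list of cytoplasmic or snoRNA host lncRNAs has a median of 0.56.

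Paraspeckles need proteins of the DBHS family (Nono, Sfpq, Pspc1) and others besides Neat1. Of the 10 mRNAs of such proteins tested, 0 passed in N6L against NT cytoplasm with edgeR or with DESeq2, where 28.3% of all genes passed with edgeR. None had an unadjusted p under 0.05 with edgeR, where 5907 of the 13889 genes tested did, and the median was 0.03. With the length and GC offsets 1 of the 10 was lower and 0 were higher. Hnrnpk and Nono, the most abundant, stood at 0.36 ± 0.19 and 0.03 ± 0.22. In polysomes 1 of 10 fell with N6L, Smarca4 (-0.82 ± 0.21, adjusted p = 0.0283), where 3.66% of all genes fell. In polysome against cytoplasm of N6L cells 3 were lower, Smarca4 (-0.93), Sfpq (-0.53) and Pspc1 (-0.49), where 20.6% of all genes were. Of 6 mRNAs known to be held in the nucleus or to keep introns, 2 rose in N6L cytoplasm, where 14.5% of all genes did, the cyclin Ccnl1 (0.89 ± 0.26, adjusted p = 0.0211) and the methionine adenosyltransferase Mat2a (0.62 ± 0.15, adjusted p = 0.00842), with a median of 0.49. In polysome against cytoplasm of N6L cells 2 of the 6 were lower, Ogt (-1.22 ± 0.32) and Ccnl1 (-0.95 ± 0.26), against the same 20.6% of all genes, and 0 with the length and GC offsets.

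Other host transcripts of miRNAs were few. Beside Mir17hg the hosts Mir22hg and Mir155hg were tested, and with N6L in the cytoplasm they stood at 0.16 ± 0.26 and 0.60 ± 0.42 and did not pass. The same list also held Mir703, which is itself a miRNA gene, and Mirt1, a lncRNA not known as a miRNA host. Both fell there (-1.88 ± 0.32, adjusted p = 0.002, and -0.63 ± 0.19, adjusted p = 0.0266), so the 2 calls of this list were not of hosts. Mir155hg, with 3 to 59 counts per library, was lower in polysomes than in cytoplasm of N6L cells (-1.73 ± 0.46, adjusted p = 0.0114). There 20.6% of all genes were lower, and Mir22hg, at -0.56 ± 0.26, did not pass. Of the protein-coding neighbours of Malat1 and Neat1, Frmd8 stood at -0.04 ± 0.16 in N6L against NT cytoplasm and did not pass, and Ltbp3 fell (-0.50 ± 0.16, adjusted p = 0.0288).

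Genes whose level ran most closely with each member were looked for among the 8959 genes averaging 10 CPM or more, by Pearson correlation of log2 CPM over the 12 libraries. The points share cultures, fractions and treatment, so the coefficients describe these libraries only. Neat1 ran with Cyp3a13 (r = 0.986), a cytochrome P450, and with Hmgcs1 (0.979), an enzyme of cholesterol synthesis. Malat1 ran with Plk4 (0.954), Hmmr (0.948) and Mastl (0.946), genes of centriole duplication, the spindle and mitotic entry. For Pvt1 the leading genes were Skap2 (0.908), Cdk7 (0.901) and Gdap2 (0.856). For Kcnq1ot1 they were Mllt3 (0.899), Eif2ak2 (0.892) and Hmgn5 (0.889), and for Mir17hg Ndc1 (0.916), Clcc1 (0.913) and Efemp1 (0.905). Malat1 and Neat1, neighbours in the genome, had a coefficient of 0.371 with each other, and Neat1 and Mir17hg one of -0.331.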

How the data were processed

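Per the labels, poly(A)+ RNA was taken with oligo(dT) and libraries were made with a strand-specific kit. The authors demultiplexed with bcl2fastq 2.18.0.12, aligned the reads with STAR to mm10 and counted them per gene with HTSeq 0.5.3, as their processing notes and methods say. The deposited values are raw counts, without normalization, in 4 technical replicates for each of 12 libraries (48 sets). Which annotation and strand setting the counting used, and how multimapping reads were handled, is not given in the sources used here. Same-strand genes annotated over the exons cover 1.23% of Malat1, 1.85% of Neat1, 4.87% of Pvt1 and 15.2% of Mir17hg.

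From these counts, technical replicates were summed and genes filtered with filterByExpr. The quasi-likelihood test of edgeR 4.0.16 (R 4.3.3, glmQLFit and glmQLFTest) was run with TMM scaling on 4 groups of 3, without a block. p-values were adjusted by Benjamini-Hochberg over 13889 genes with a limit of 0.05. The fit was tested on simulated data. The common biological coefficient of variation was 0.197. Symbols, transcripts and positions came from GENCODE vM21. Ratios per culture used log2 CPM with a prior count of 2.

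Members and lists were chosen with earlier results of these data known. All members were to be named, with the 3 genes most correlated with each, and of each list the 2 most abundant genes tested and those past the limit. Some genes that this rule names are not reported here. The culture is labelled inconsistently for 3 technical replicates of N6L cytoplasm 2, which were kept with the culture of their title. Cytoplasm and polysomes of a culture come from 1 lysate and are therefore paired; their deviations from group means correlated by 0.0368 to 0.645. Alternatives were other scalings, filters, DESeq2 1.42.0, 1 technical replicate alone, omission of those 3 or of each culture in turn, blocks, fits of only the groups compared, and offsets for length and GC content.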

Additional observations from a re-analysis of the deposited data

How the results depend on the processing

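The log2 change of Neat1 with N6L kept its direction and its side of the threshold in all 16 alternatives, at 1.45 to 2.34 in the cytoplasm and 1.71 to 2.14 in polysomes. The 2 libraries of each culture are paired, and with the culture as a replicate block 3 members again passed in polysome against cytoplasm of N6L cells (Neat1 at -0.95) and 0 in NT cells; the block changed no call of a member. A block on the label number across treatments turned Kcnq1ot1 in polysomes to 0.45. Counts near the filter limit Dancr, Mir17hg and Kcnq1ot1.

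Where a member changed sign or a count moved, the cause was not tested. With library size alone Malat1 in polysomes became 0.02 and Pvt1 in polysome against cytoplasm -0.01 (NT) and -0.11 (N6L). Without the filter, 3 members (Malat1, Neat1 and Mir17hg) passed in polysome against cytoplasm of NT cells in place of 0. Over all genes 647 passed there in place of 29. Pvt1 in N6L cells was then at 0.0. With at least 10 counts in every library, and with technical replicate a alone, 1 member passed in the cytoplasm in place of 2, because Mir17hg was not tested. With replicate a alone Kcnq1ot1 in polysomes became 0.11, Pvt1 -0.03 in polysome against cytoplasm of NT cells and 0.12 for the index, and the ratios per culture became 0.16 for Kcnq1ot1 and 0.13 for Pvt1. With the length and GC offsets 0 members passed in polysome against cytoplasm of N6L cells (Neat1 0.24, Kcnq1ot1 0.04, Mir17hg 0.17). The same offsets gave -0.34 for Malat1, -0.27 for Kcnq1ot1 and -0.06 for Pvt1 in the cytoplasm, 0.02 for Kcnq1ot1 in polysomes, and an index of 0.23 for Malat1, 0.70 for Neat1, 0.29 for Kcnq1ot1 and 0.12 for Pvt1.

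Leaving out each culture in turn gave 0 to 3 members in polysome against cytoplasm of N6L cells (0 without N6L culture 2 and without N6L culture 3). In N6L against NT cytoplasm it gave -0.07 to 0.35 for Malat1 and 0.0 to 0.20 for Pvt1, and in polysomes -0.61 to 0.22 for Malat1 and -0.55 to 0.40 for Kcnq1ot1. Pvt1 in polysome against cytoplasm of N6L cells ran from -0.14 to 0.15. The index ran from -0.76 to 0.15 for Malat1, -0.38 to 0.08 for Neat1 and -0.20 to 0.09 for Pvt1. The difference in ratio per culture ran from -0.81 to 0.08 for Malat1, -0.44 to 0.05 for Neat1 and -0.21 to 0.10 for Pvt1.

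Over all genes, DESeq2, replicate a alone, only the groups compared and the offsets called 2034, 895, 328 and 2786 in polysomes against 1343. In polysome against cytoplasm of NT cells, 29 calls became 203 with the culture as a block, 268 with the label number, 647 without the filter, 281 with DESeq2, 18 with replicate a alone, 139 with only the groups compared and 66 with the offsets. The offsets gave 2783 in N6L cells against 5415. Leaving out a culture gave 1295 to 4042 calls in the cytoplasm, 146 to 1579 in polysomes, 0 to 335 in polysome against cytoplasm of NT cells and 1153 to 5861 of N6L cells. The index had 114 calls without the filter. Library size alone moved the median of all genes from 0.04 to 0.19 in the cytoplasm and the share of higher calls from 51.2% to 65.5%. It moved that share from 62.2% to 77.6% in polysomes and from 47.3% to 36.1% in polysome against cytoplasm of N6L cells, and the offsets gave 41.0%, 44.0% and 57.9%.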
